A study of Mus musculus with 8 samples.

Results

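The genes described here encode the subunits of voltage-gated sodium and calcium channels. They were defined by symbol, with earlier results of these data known. The rule took protein-coding genes of the GENCODE M21 annotation (mouse build mm10, GRCm38). Their name starts with Cacna, Cacnb or Cacng, or is Scn followed by a number and a or b. The rule found 40 of 21853 protein-coding genes: 10 Cacna1 genes for the pore-forming calcium channel subunits, 4 Cacna2d genes, 4 Cacnb genes and 8 Cacng genes for their auxiliary subunits, 10 sodium channel α subunit genes and 4 sodium channel β subunit genes. A peak belonged to a channel gene when it lay in the gene body, or when the nearest protein-coding transcription start site (TSS) within 100 kb was that of the gene. By this rule 771 of 139188 peaks, merged into 251 of 46070 regions, belonged to the 40 genes.

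The study mapped the binding of the transcription factors NFIA, NFIB and NFIX by chromatin immunoprecipitation and sequencing (ChIP-seq) in granule neuron progenitors, dividing cells of the cerebellum that give rise to its granule neurons, at postnatal day 7 of the mouse. The cells were freed from cerebellum with papain, and no mutant genotype or treatment is named for any library. Each factor had 1 library from the outbred CD1 strain and 1 from a mixed background that the labels liken to CD1, called Mixed here, which gives 6 ChIP libraries of the 8 samples; the 2 inputs were not analysed here. The NFIA antibody was from Abcam and the NFIX antibody from Sigma, while for NFIB the sample labels name Novus and the series' design text names Sigma. Nothing in the labels says how many animals went into a library, so the spread between the libraries of a factor joins background, animals and technique, and no test between groups was made.

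Voltage-gated sodium channels carry the rising phase of the action potential. Voltage-gated calcium channels turn depolarisation into calcium entry, which drives transmitter release, dendritic signalling and gene expression, and their auxiliary subunits set trafficking and gating of the pore. Granule cells acquire both kinds of current as they leave the cell cycle and mature, and several classic ataxic mouse mutants are alleles of these genes. NFI proteins bind DNA as dimers at the palindrome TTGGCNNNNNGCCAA, or more weakly at a single arm such as TTGGCA.

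The stretches printed here are a selection from channel gene regions for which the transcripts or the promoter table gave the sequence of the build. The letters under the intronic regions, which make up most of the set, were not used here. The printed stretches are shown to let the NFI motif letters be read beside the peaks. Capitals mark matches, on either strand, to a single-arm site (TTGGCA or TGCCAA) or to the palindrome with shortened arms, TGGCNNNNNGCCA, a form that was added after the data had been seen. The Dcp1a promoter and the exonic windows of Dcp1b, Cacna2d4 and another Cacna1c exon held no such match and are not printed. The share of printed stretches with a match is therefore no measure of how often the motif occurs. The first 4 are 101-base windows around the summit of the strongest peak of a region in an exon, read from GENCODE M21 transcripts: Cacna1g (chr11:94423987-94424087, minus strand, peaks of 4 libraries), Cacna1c (chr6:119057364-119057464, minus strand, NfiB CD1 alone), the noncoding gene Gm37759 that lies over an exon of Cacna1s (chr1:136118988-136119088, minus strand, 3 libraries) and the last exon of Cacna1a (chr8:84639541-84639641, plus strand, both NfiB libraries alone). The next is a single-arm site in an untranslated exon of Cacna2d1 (chr5:16088267-16088293, plus strand, 4 libraries). The noncoding exon of Gm13630 (chr2:66409494-66409533, plus strand) lies inside the Scn1a region at a start site that all 6 libraries shared. The last 2 are the 250 bases before a RefSeq start (GRCm38.p6) that held a summit, for Lrtm2, a gene nested in Cacna2d4 (chr6:119329205-119329454, minus strand, 5 libraries), and for Scn2a (chr2:65668436-65668685, plus strand, NfiB CD1 alone).
Cacna1g exon: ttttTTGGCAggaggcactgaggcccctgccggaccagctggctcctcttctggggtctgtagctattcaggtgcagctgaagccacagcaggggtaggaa
Cacna1c exon: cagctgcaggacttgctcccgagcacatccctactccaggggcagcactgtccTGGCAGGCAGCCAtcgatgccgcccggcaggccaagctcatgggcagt
Gm37759 exon: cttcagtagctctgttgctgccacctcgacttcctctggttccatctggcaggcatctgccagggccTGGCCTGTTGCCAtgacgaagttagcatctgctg
Cacna1a last exon: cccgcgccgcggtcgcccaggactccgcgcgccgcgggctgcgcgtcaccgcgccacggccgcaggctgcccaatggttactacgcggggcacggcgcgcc
Cacna2d1 site: tttttttcagtcTGCCAAttagaatga
Gm13630 exon: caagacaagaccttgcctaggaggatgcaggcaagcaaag
Lrtm2 promoter: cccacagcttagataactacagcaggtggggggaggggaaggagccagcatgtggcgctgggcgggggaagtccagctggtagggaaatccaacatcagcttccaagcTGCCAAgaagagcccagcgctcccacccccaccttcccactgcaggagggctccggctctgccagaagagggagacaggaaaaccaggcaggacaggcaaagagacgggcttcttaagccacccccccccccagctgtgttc
Scn2a promoter: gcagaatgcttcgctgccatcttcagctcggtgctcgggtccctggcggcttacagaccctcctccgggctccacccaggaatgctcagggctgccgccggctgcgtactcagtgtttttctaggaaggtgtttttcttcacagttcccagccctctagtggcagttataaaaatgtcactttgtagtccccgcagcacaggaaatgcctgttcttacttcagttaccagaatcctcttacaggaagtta

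Among the 14 channel gene regions with such an exonic window, none held the full palindrome, 2 held the palindrome with shortened arms and 3 held a single-arm site. Over all 3116 regions with an exonic window the shares were 0.931%, 6.61% and 21.2%, and over the 217 of them shared by all 6 libraries 6.45%, 25.3% and 36.9%. The E-box CAGCTG, the same on both strands and a class of site bound by basic helix-loop-helix factors, stood in 6 of the 14 windows (42.9%), against 16.9% of all exonic windows. CAGATG, searched on both strands, stood in 3 of 14 against 19.0%. None of the 14 windows belonged to a region of all 6 libraries. The RefSeq table held 41 promoters of 30 of the 40 genes, each of 300 bases. None held the full palindrome or the one with shortened arms, which stood in 0.0365% and 0.807% of all 32851 promoters. A single-arm site stood in 8 of the 41 (19.5%) and CAGCTG in 13 (31.7%), against 14.1% and 16.3% of all promoters. CAGATG stood in 7 (17.1%), against 17.2% of all promoters. The Cacna1a window, with 21 CpG dinucleotides and a GC content of 81.2%, and the Scn2a promoter carried no NFI letters of any of these forms.

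Channel gene peaks made up nearly the same share of every list. They were 88 of 16993 peaks (0.518%, 95% Wilson interval 0.421 to 0.638) in NfiA CD1 and 136 of 23541 (0.578%) in NfiA Mixed. They were 201 of 36431 (0.552%) in NfiB CD1 and 183 of 33283 (0.550%) in NfiB Mixed. They were 43 of 7497 (0.574%) in NfiX CD1 and 120 of 21443 (0.560%) in NfiX Mixed. The number of channel gene peaks went with the length of each list, and the share lay inside the Wilson interval of NfiA CD1 in each of the other lists. Intervals here cover counting error only, and the read depth of the libraries is unknown, since the files hold called peaks and no read totals.

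The fold enrichment of a peak is the authors' value at its summit, and channel gene peaks are compared with other peaks only within a list. Where folds of different lists stand side by side below, their order is not a difference in binding. The median fold of channel gene peaks was 5.57 in NfiA CD1, where the other peaks had 5.79, and 5.54 against 5.51 in NfiA Mixed. In NfiB CD1 it was 5.95 against 5.76, and in NfiB Mixed 5.44 against 5.52. In NfiX CD1 it was 5.86 against 5.99, and in NfiX Mixed 5.90 against 6.03. On the log2 scale the channel gene peaks differed from the others by -0.01 ± 0.04 (SD, n = 6 libraries), higher in 2 libraries and lower in 4, a difference smaller than its spread between libraries.

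Of the 40 genes, 30 had a region (75%), where 48.6% of all protein-coding genes had one. A region with a peak of all 6 libraries was found at 16 of the 40 (40%), against 13.2% of all protein-coding genes, and 15 of the 40 had one by the nearest start site alone, against 11.4%. Gene length has to be read beside these counts: the channel genes had a median length of 105 kb, all protein-coding genes one of 17.4 kb. None of the 13 channel genes under 50 kb had such a region, where 7.6% of genes of that length had one. Among those of 50 to 200 kb 9 of 19 had one (47.4%), against 24.4%, and among those over 200 kb 7 of 8 (87.5%), against 63.1%. The plot of regions by gene length shows the channel genes within the cloud of all genes, with Cacna1a, Cacna1c, Cacna2d1 and Cacna2d3 near its upper side and Cacnb2 and Cacnb4 lower.

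**Figure D1:**
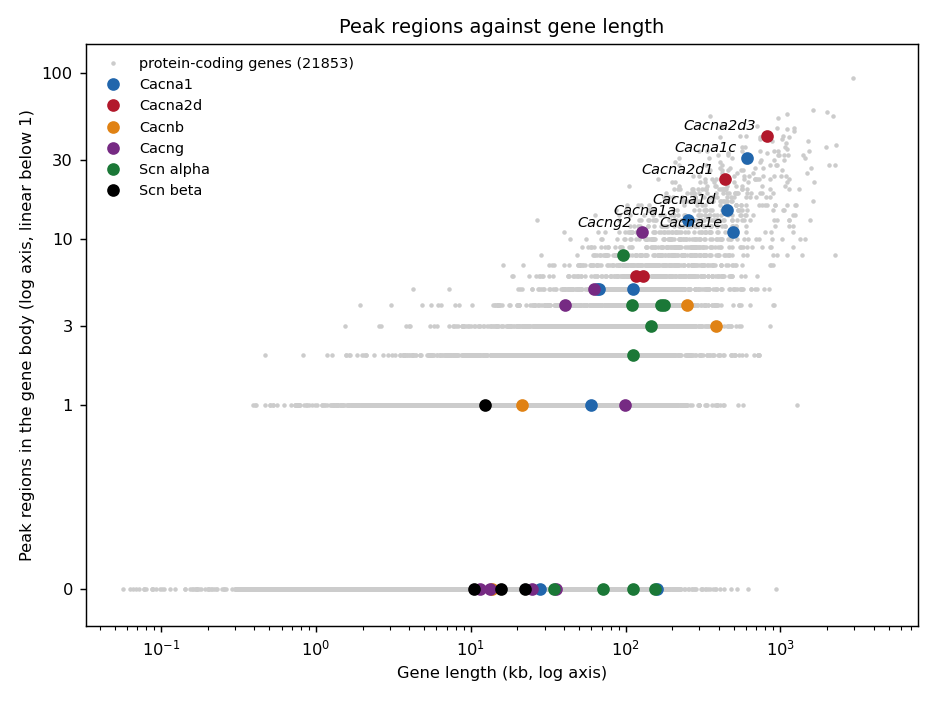
Number of peak regions in the gene body (vertical axis, log scale, linear below 1) against gene length in kb (horizontal log axis) for 21853 protein-coding genes (grey) and the 40 channel genes (coloured by family). Channel genes with more than 10 regions in the body are labelled; Cacna2d3, Cacna1c and Cacna2d1 lie at the upper side of genes of their length, and Cacnb2 and Cacnb4, the unlabelled points over 200 kb, lie lower.

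Per length, the channel genes held 35.6 regions per Mb of gene body (exact Poisson interval 31.0 to 40.6, from 218 regions), where all protein-coding genes held 23.4. A difference was seen in the longer genes: 38.4 per Mb (32.4 to 45.3) against 25.0 over 200 kb and 32.6 (25.4 to 41.2) against 22.7 for 50 to 200 kb. Under 50 kb the values were 21.1 (7.74 to 45.9) and 21.7. The 6 regions there are too few to show whether short genes differ. By family the density was 51.3 per Mb for Cacna2d (40.4 to 64.1), 50.6 for Cacng (31.3 to 77.4), 37.4 for Cacna1 (29.9 to 46.2), 21.1 for the sodium channel α subunits (13.7 to 31.2), 16.4 for the β subunits and 12.0 for Cacnb (5.17 to 23.6). The intervals of Cacna2d, Cacna1 and Cacng lay wholly above the value of all genes, and those of the sodium channel α and β subunits and of Cacnb included it. These intervals cover counting error and not the spread between genes of a family. Single genes ran from 0 (Cacna1b) to 76.0 (Cacna1g) in Cacna1 and from 0 (Cacng1) to 98.9 (Cacng5) in Cacng. In Cacna2d they ran from 46.2 (Cacna2d2) to 52.3 (Cacna2d1).

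Of the 251 regions, 35 (13.9%, Wilson interval 10.2 to 18.8) held a peak of all 6 libraries, against 13.2% of all regions. The commoner patterns of libraries were close to those of all regions: 30 regions (12.0%) lacked only NfiX CD1, the shortest list, against 12.1%, and 26 (10.4%) held both NfiB libraries and nothing else, against 9.73%. A further 74 (29.5%) came from 1 library, against 31.9% of all regions. Each of these shares lies near its background and says nothing particular of channel genes.

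**Figure D2:**
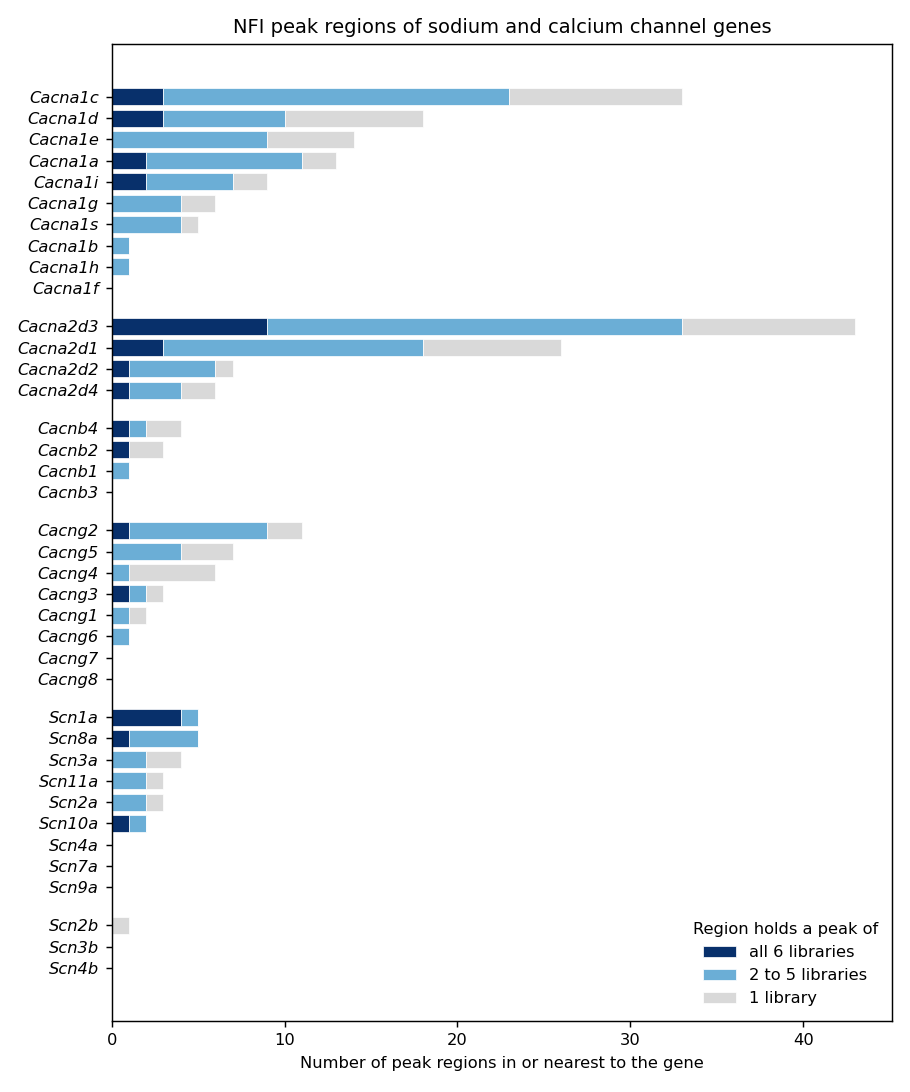
Number of peak regions in or nearest to each of 38 channel genes (horizontal axis), split by how many of the 6 libraries had a peak there and ordered by family. Cacna2d3 (43 regions), Cacna1c (33), Cacna2d1 (26) and Cacna1d (18) lead, and 9 of the 38 have none.

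The regions were spread unevenly over the genes, as the plot of regions per gene shows. Cacna2d3, Cacna1c, Cacna2d1 and Cacna1d held 120 of them and 18 of the 35 that all libraries shared. Most lay inside the genes: 218 regions were in a channel gene body and 33 only nearest to one. For 103 of the 218 the nearest start site was another gene's or lay beyond 100 kb, so the assignment names the gene that holds or neighbours a region, not its target. By summit, 207 (82.5%) were intronic and 25 (9.96%) intergenic, against 43.6% and 42.1% of all regions, a split set in large part by the rule, which took in gene bodies.

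Among the pore-forming calcium channel genes, 9 of 10 had a region and 4 had one of all 6 libraries. Cacna1c and Cacna1d encode L-type channels, which signal from the membrane to the nucleus. Cacna1c, of 609 kb, held 33 regions, and its strongest shared one (chr6:118724555-118725657, an intron, 471 kb from the gene start) had folds of 8.85 and 10.2 for NFIA, 14.5 and 11.7 for NFIB and 6.86 and 12.9 for NFIX, here and in what follows with CD1 before Mixed. Summits of the 6 libraries fell within 27 bp of each other there. A second shared region of Cacna1c (chr6:119079462-119079943) lay 0.331 kb from the start of an inner transcript, over an untranslated exon, with 5.20 and 7.55 for NFIA, 10.6 and 16.1 for NFIB and 4.37 and 6.25 for NFIX. Both were highest in an NfiB library and lowest in NfiX CD1; folds of different lists stand side by side here and are not differences in binding.

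Cacna1d held 18 regions over 452 kb and 3 shared ones. The strongest (chr14:30075193-30075823), 416 kb into the gene, had folds from 6.44 in NfiX CD1 through a median of 10.4 to 16.3 in NfiB CD1. Another (chr14:30498110-30498687) lay 7.27 kb upstream of Cacna1d, in an intron of Dcp1a, a gene of mRNA decapping, and ran from 5.88 in NfiX CD1 to 18.2 in NfiB Mixed. Cacna1s, the L-type channel of skeletal muscle, held 5 regions and none with NfiX CD1. Cacna1f, the L-type channel of photoreceptors, was among the genes with no region.

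Cacna1a encodes the P/Q-type channel that drives release at many central synapses, and its mutations cause ataxia in mice and humans. It held 13 regions in 252 kb, and the stronger of its 2 shared ones (chr8:84485835-84486399, an intron) had folds of 8.74 and 9.79 for NFIA, 12.4 and 12.3 for NFIB and 5.24 and 10.4 for NFIX. Another intronic region (chr8:84439751-84440196) lacked only NfiX CD1 and was as high in the rest, between 8.30 and 14.5. Cacna1e, the R-type channel, held 14 regions over 494 kb and none shared by all 6 libraries. NfiX CD1, the shortest list, had no peak at any of them, and NfiA CD1 had one at only 2. Over all 251 channel gene regions NfiX CD1 had 43 peaks. Cacna1b, the N-type channel of presynaptic terminals, had a single region, 38.8 kb from its nearest start site, in NfiB Mixed and NfiX Mixed.

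The T-type channels open at low voltages and shape burst firing. Cacna1i held 9 regions, 2 of them shared by all libraries. The first (chr15:80342942-80343627) was intronic with folds from 4.96 to 11.2, and the second (chr15:80413030-80413584) lay past the 3′ end of the gene with folds from 4.85 to 10.4. Cacna1g held 6 regions, the exonic one printed above among them, with folds of 5.04 in NfiA Mixed, 6.07 and 5.82 for NFIB and 4.59 in NfiX Mixed. Cacna1h had 1 region, in both NfiB libraries alone, with folds of 5.12 and 4.94.

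The α2δ subunits are extracellular proteins that bring calcium channels to the membrane and also act in synapse formation. All 4 genes had a region of all 6 libraries. Cacna2d3 stood highest among the 40: its 43 regions ranked 20 and its 9 shared regions ranked 6 among 21853 genes, in a body of 817 kb. Tied genes are given the best rank, and 0.0458% of genes had as many shared regions or more. Its density of 51.4 regions per Mb was at the 89.8 percentile of the 996 genes over 200 kb.

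**Figure D3:**
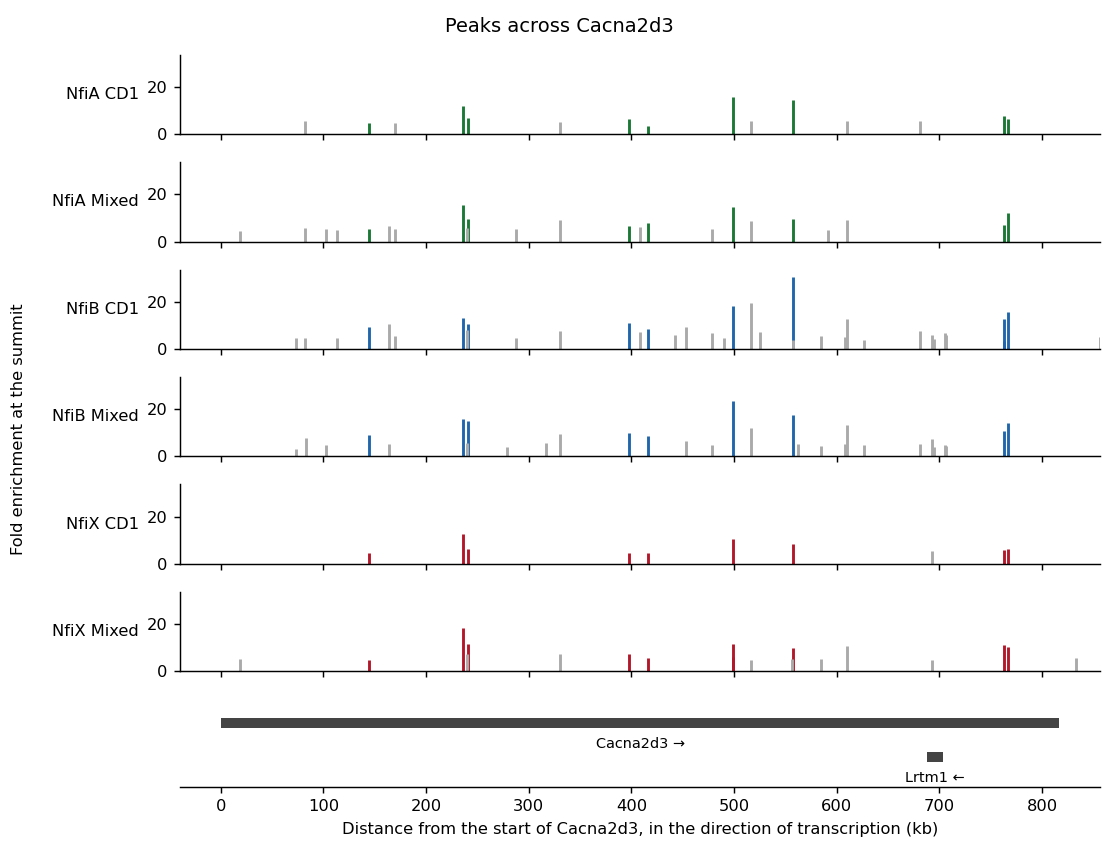
Fold enrichment of each peak (vertical axes, 1 panel per library) against distance from the start of Cacna2d3 in kb, in the direction of transcription; coloured lines are peaks in regions of all 6 libraries, grey lines other peaks, and bars show the gene and the nested Lrtm1. The 9 shared regions lie between 144 and 767 kb from the start, with the highest fold of any channel gene (30.5 in NfiB CD1) at 558 kb.

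The strongest region of Cacna2d3 by mean percentile within the lists (chr14:29485325-29485720, an intron, 236 kb from the gene start) had folds of 11.9 and 15.4 for NFIA, 13.3 and 15.9 for NFIB and 12.7 and 18.2 for NFIX. It was the highest channel gene peak of both NfiX lists. A second region 499 kb into the gene (chr14:29222033-29223704) had 15.5 and 14.4 for NFIA, 18.3 and 23.3 for NFIB and 10.6 and 11.8 for NFIX, and at 1672 bp was the widest of the 35 shared regions. Another at 558 kb (chr14:29163834-29164460) had 14.6 and 9.34 for NFIA, 30.5 and 17.4 for NFIB and 8.42 and 9.96 for NFIX. In each of the 6 libraries the highest fold of the gene fell in 1 of these 3 regions, as the map of peaks along Cacna2d3 shows. The region nearest to the gene start that all libraries shared lay 144 kb into the gene (chr14:29577583-29578379), with folds from 4.49 to 9.18.

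Cacna2d1, whose product binds the drug gabapentin, held 26 regions in 440 kb. Its strongest shared region (chr5:16086924-16087531), an intronic one 152 kb from the gene start, had folds of 11.9 and 12.8 for NFIA, 17.7 and 12.1 for NFIB and 6.39 and 10.8 for NFIX. Another, 159 kb in (chr5:16093105-16093754), had 9.67 and 12.1, 13.8 and 17.5, and 6.14 and 11.4. Between them lay the untranslated exon with the single-arm site printed above, with 4.88 and 4.41 for NFIA, 6.09 and 5.0 for NFIB and no NFIX peak. The neighbouring regions were thus shared by all factors and the exonic one was called for NFIA and NFIB alone; 10 channel gene regions (3.98%) held both NFIA and both NFIB libraries without NFIX, against 3.00% of all regions.

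Cacna2d2, mutated in the ataxic ducky mouse, held 7 regions. Its shared region (chr9:107384177-107384861) was intergenic, 15.0 kb upstream, with folds from 4.54 in NfiX CD1 to 8.64 in NfiB Mixed. Cacna2d4, a subunit best known from the retina, held 6, and its shared region (chr6:119237427-119238024) lay in an intron 1.20 kb from its start with folds from 4.14 in NfiA Mixed to 8.20 in NfiB CD1.

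The β subunits bind the pore inside the cell and carry it to the membrane. Cacnb4, mutated in the ataxic lethargic mouse, held 4 regions in 249 kb, and a single one was shared by all libraries (chr2:52615176-52615879, an intron). Its folds were 8.84 and 14.3 for NFIA, 12.6 and 14.5 for NFIB and 7.48 and 9.46 for NFIX, and its mean percentile of 87.2 was among the highest 6 of the 35. Cacnb2 held 3 regions in 385 kb, a low density at the 16.3 percentile of genes over 200 kb. Its shared region (chr2:14676951-14677478) had 6.29 and 6.80 for NFIA, 6.62 and 9.52 for NFIB and 4.59 and 15.2 for NFIX, the highest in NfiX Mixed. Cacnb1 had 1 region, at its promoter, and Cacnb3 had none.

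The Cacng genes encode membrane proteins related to the γ subunit of the muscle channel, several of which carry AMPA receptors to synapses and are called TARPs. Cacng2 (stargazin), whose mutation gives the ataxic stargazer mouse, held 11 regions in 128 kb, and its shared region (chr15:78036548-78037004) had folds of 7.86 and 8.62 for NFIA, 13.1 and 9.73 for NFIB and 4.83 and 10.4 for NFIX, with summits within 22 bp. The shared region of Cacng3 (chr7:122622069-122622653), another TARP gene, lay 48.2 kb upstream in an intron of Prkcb, a protein kinase C gene. Its summits spread over 306 bp, the widest spread of the 35, where the median was 56 bp. Cacng5 held 7 regions, Cacng4 6, Cacng1 2 and Cacng6 1, none of them with NfiX CD1, and Cacng7 and Cacng8 had none.

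Of the 10 sodium channel α subunit genes, 7 had a region and 4 had one of all 6 libraries. At Scn1a, mutated in Dravet syndrome, 4 of the 5 regions held all 6 libraries, and the fifth lacked only NfiB Mixed. Its 4 shared regions ranked 99 among all genes, with tied genes at the best rank, and 0.856% of genes had as many or more. By its 5 regions of any kind it ranked 1908, counted in the same way. NfiX CD1, the shortest list, had a peak at all 5 regions, while it had a peak at 43 of the 251 channel gene regions.

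The Scn1a region with the highest mean percentile among those with 6 libraries (chr2:66458768-66459128) lay 18.1 kb upstream of the nearest start, in the noncoding gene Gm13629. It had folds of 8.76 and 8.69 for NFIA, 7.67 and 8.77 for NFIB and 8.62 and 12.8 for NFIX. The region at a start site (chr2:66409378-66409681, 0.529 kb from it), which holds the Gm13630 exon printed above, had 6.89 and 8.96, 5.73 and 9.13, and 6.15 and 10.5. The region that lacked NfiB Mixed (chr2:66344947-66345268) had 8.55 and 7.79 for NFIA, 7.46 in NfiB CD1 and 9.65 and 15.4 for NFIX. The remaining 2 were intronic, with folds from 5.85 to 12.8 at chr2:66397685-66398014 and from 5.23 to 8.56 at chr2:66337441-66337821. NfiX CD1 gave the lowest fold of the 6 at 24 of the 34 shared channel gene regions plotted by fold. How often NfiX CD1 was lowest over all shared regions of the genome was not counted, and folds of different lists are not differences in binding.

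**Figure D4:**
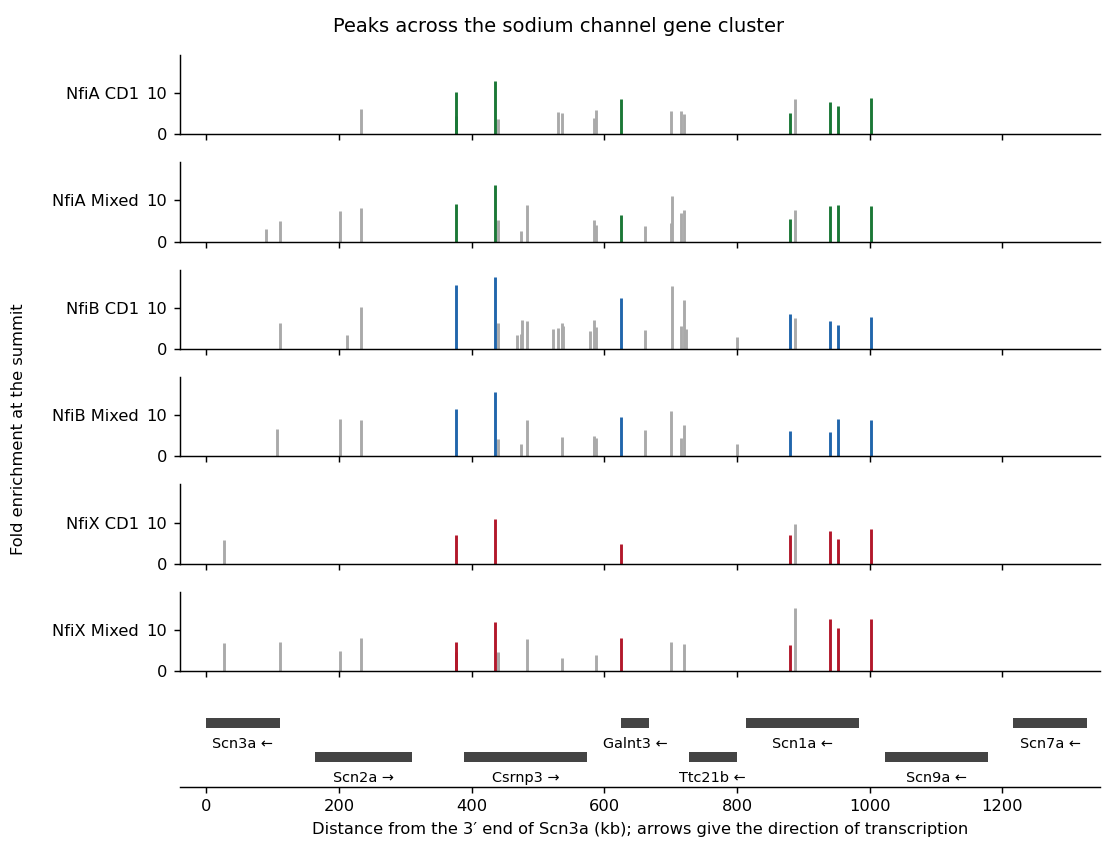
Fold enrichment of each peak (vertical axes, 1 panel per library) across the sodium channel gene cluster of chromosome 2, against distance from the 3′ end of Scn3a in kb; coloured lines are peaks in regions of all 6 libraries, grey lines other peaks, bars the genes. Scn1a has 4 shared regions, and no library has a peak over Scn9a or Scn7a.

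Scn1a lies in a cluster of 5 sodium channel genes on chromosome 2 (chr2:65457118-66784914, 1.33 Mb). The cluster held 34 regions, 7 of them shared by all libraries, or 25.6 regions per Mb. Of the 34, 12 belonged to the channel genes: 5 to Scn1a, 4 to Scn3a and 3 to Scn2a, the last a channel of axon initial segments. No library had a peak at Scn9a, a channel of pain-sensing neurons, or at Scn7a, and both lay in a stretch of 873 kb without any peak (chr2:66459129-67332016) that began right after the upstream Scn1a region. Of the 46043 gaps between neighbouring regions in the genome, 162 (0.352%) were as long, and the median gap was 21.1 kb. Gaps in the assembly are among them, and mappability was not examined.

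Outside the cluster, Scn10a, a channel of sensory neurons, held 2 regions in 111 kb. Its shared one (chr9:119656127-119656490), in an intron, had folds of 7.46 and 6.21 for NFIA, 10.5 and 9.24 for NFIB and 5.88 and 5.67 for NFIX, highest in NfiB CD1. Scn11a, another channel of sensory neurons, had 3 regions outside its body and none shared by all 6 libraries.

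Scn8a, a channel of axon initial segments and nodes whose loss gives the ataxic motor endplate mutant, held 5 regions in 176 kb. Its shared region (chr15:100909317-100910533) was 1217 bp wide and ran from 3.36 in NfiX CD1 to 11.0 in NfiB Mixed. Of the 4 β subunit genes, which encode small adhesion-like partners of the pore, Scn2b alone had a region, called in NfiB CD1 with a fold of 5.44. The 4 β subunit genes are at most 22.4 kb long, and Scn3b and Scn4b had no region. Scn4a, the channel of skeletal muscle, had none either.

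**Figure D5:**
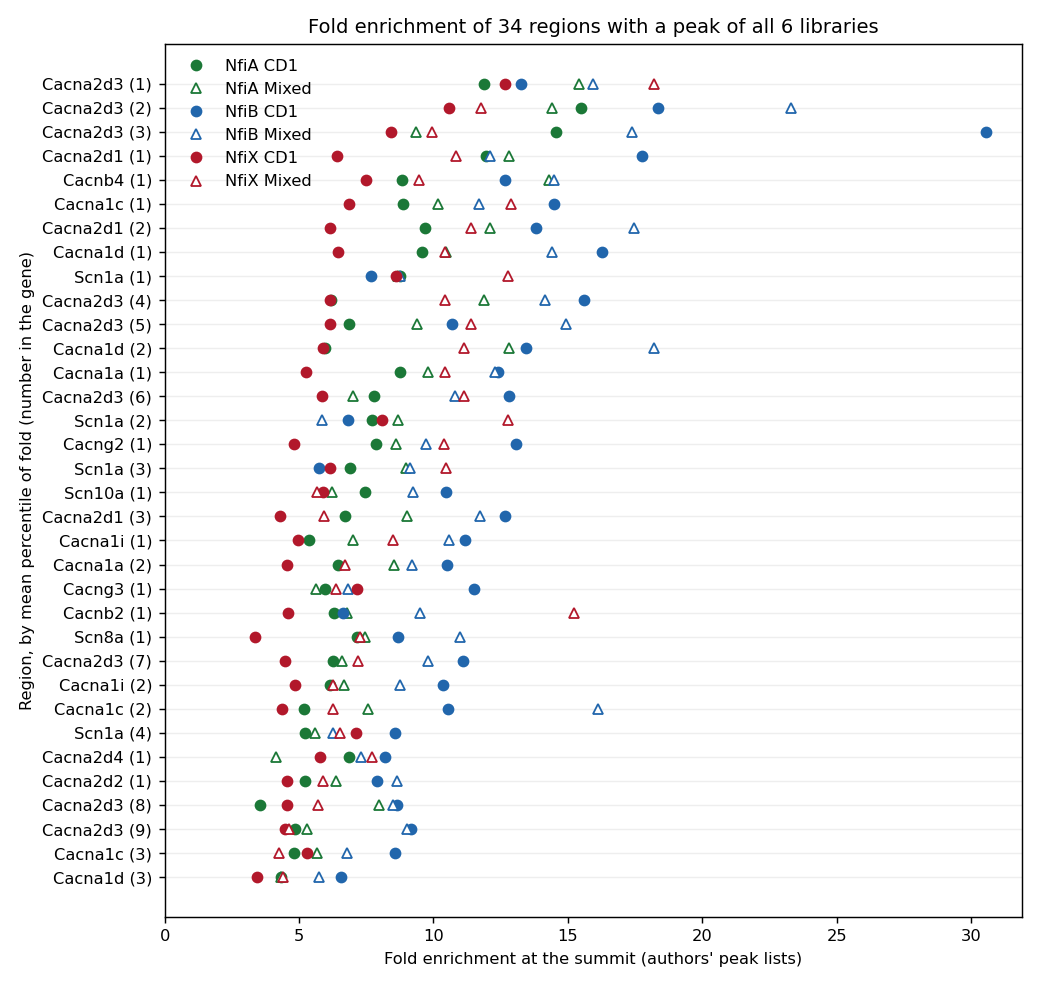
Fold enrichment at the summit (horizontal axis) in each of the 6 libraries for 34 channel gene regions with a peak of all of them, ordered by mean percentile within the lists; circles are CD1, triangles Mixed, and colours the factor. Cacna2d3 holds the first 3 rows. NfiX CD1 is the lowest point in 24 of the 34, which was not counted over all shared regions of the genome and is not a difference in binding.

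The 35 shared regions had summits within a median of 56 bp and a median width of 608 bp, near the 62 bp and 590 bp of all 6062 regions shared by the 6 libraries. They ranked somewhat lower in their lists: the median of the mean percentile of fold was 70.9, against 75.7, and 4 of 35 (11.4%) were at or above the 90 percentile, against 18.8%. Within 10 kb of another shared region lay 6 (17.1%), against 16.1%. The spread of folds over these regions by library is drawn in the plot of folds by region. The median distance to the nearest protein-coding start was 48.2 kb, against 70.1 kb for all shared regions. Of the 35, 17 (48.6%) lay more than 50 kb away, against 57.5%. Outside channel gene bodies the rule took in only regions within 100 kb of a channel gene start, a limit not set on all shared regions. Its part in these distances was not tested.

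At promoters, within 1 kb of a protein-coding start, lay 14 of the 251 regions (5.58%, Wilson interval 3.35 to 9.14), against 8.46% of all regions. The rule took in whole bodies of mostly long genes, and its part in this share was not tested. They were at starts of 7 of the 40 channel genes, where 15.3% of all protein-coding genes had a promoter region, and otherwise at Dcp1a, Dcp1b and Lrtm2, which overlap channel genes or lie beside them. Cacna1c had 3, all but 1 at starts of inner transcripts, and Cacna2d1, Cacnb1, Scn1a, Scn2a and Scn3a had 1 each.

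Of the promoter regions, those of Scn1a and Cacna1c described above were the pair that all 6 libraries shared. The Cacnb1 promoter region (chr11:98021517-98021936) held every library but NfiA CD1, with folds of 5.45 in NfiA Mixed, 5.16 and 5.18 for NFIB and 5.49 and 6.11 for NFIX. That of Scn3a (chr2:65567426-65567656), a channel of the developing brain, covered the first exon and was called in 3 libraries, with 4.99 and 7.26 in the Mixed libraries of NFIA and NFIX and 6.22 in NfiB CD1. That of Scn2a, with the promoter printed above, was called in NfiB CD1 alone at 3.30, and that of Cacna2d1 (chr5:15935500-15935701) in NfiB Mixed alone.

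Regions of a single factor, with both of its libraries and none of the others, were nearly all NFIB's, as they were over all regions. NFIB alone had 10.4% of channel gene regions against 9.73% of all. Of all 46070 regions, 4484 were of NFIB alone, 56 of NFIX alone and 37 of NFIA alone. The strongest of the 26 NFIB ones lay in an intron of Cacna2d3 (chr14:29268761-29269078), with folds of 9.44 and 6.48. NFIX alone had 2, in introns of Scn3a (chr2:65483711-65484007, 5.71 in CD1 and 6.97 in Mixed) and Cacna2d1 (chr5:15961952-15962190, 6.10 and 4.88). They were 0.797% of channel gene regions (Wilson interval 0.219 to 2.86) against 0.122% of all. This share rests on only 2 regions, in a pattern picked from several, and no excess is read from it. NFIA alone had 0 of 251, which allows a share of up to 1.20% (3 counts), where 0.0803% of all regions had this pattern. The longer NfiB lists go with these counts, and the part of list length in them was not tested.

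Along the 8 channel genes over 200 kb, 142 regions fell 28.9%, 20.4%, 32.4% and 18.3% into 4 successive stretches of equal length from the gene start. In all genes over 200 kb the shares were 24.6%, 23.8%, 25.1% and 26.5% of 10790. Neither set was gathered in the first stretch, and of the 21 shared regions of the long channel genes the stretches held 5, 6, 5 and 5.

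A list of 33 further genes that are not subunits held mostly genes whose products bind or position these channels, with the leak channel gene Nalcn, its partners Unc79 and Unc80 and the two-pore channel genes Tpcn1 and Tpcn2 beside them. Of the 33 genes 29 had a region, where 48.6% of all protein-coding genes had one. A region of all 6 libraries was found at 17 (51.5%), Tpcn1 among them. For all protein-coding genes that share was 13.2%. It was 7.6% for genes under 50 kb, 24.4% for 50 to 200 kb and 63.1% over 200 kb. The median length of the 33 was 97.5 kb, and their share was not matched for length. Rimbp2, which tethers calcium channels at release sites, had 4 shared regions of 7, and Ank3, the ankyrin that gathers sodium channels at the axon initial segment, 3 of 24. Nfasc, Nrcam, Ank2, Fgf12, Fgf13, Stac and Nedd4l had 2 each. Of the genes longer than 200 kb, Fgf14 with 11 regions, Rims2 with 7, Unc79 with 5, Nalcn with 2 and Unc80 with 1 had no shared region, and Rrad, Cbarp, Stac3 and Cabp4 had no region at all.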

How the data were processed

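The files are lists of ChIP-seq peaks, 1 per ChIP library and not pooled. Per the submitters' processing notes, Bowtie2 2.2.6, SAMtools 1.4.1, MACS2 2.1.0 and the build mm10 were used. Of the control, the filters and the threshold nothing is given in the sources used here. Each deposited peak has from the authors a fold enrichment (a ratio at the summit), its p-value and q-value (both as −log10), and a score, not used here. The fold was taken as deposited, and its log2 was compared only within a list; the −log10 p-value and −log10 q-value served for alternatives. The highest q-value in any list was 0.0492.

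Overlapping peaks of the 6 lists (1 bp or more in common) became 1 region, with Python 3.11.15, pandas 2.3.3, numpy 2.4.6 and scipy 1.17.1, and the scripts were tested on simulated data. GENCODE M21 gave genes, exons and transcription start sites; regions were placed by the summit of their strongest peak. RefSeq promoters matched 30 of 40 genes by symbol, and 727 of 727 promoters compared had the same letters as the transcripts. The mean percentile of a region is the mean over its libraries of the percentile of its fold in the list.

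Members and lists were chosen with earlier results of these data known. Named with values are genes with a region of all 6 libraries (by their highest-ranked one), genes with a promoter region, the highest-ranked region of 1 factor alone and the 10 genes with the most regions; other regions are named for contrast, chosen after their values were seen. No test was run, since the values describe a set chosen with results known and each factor has 1 library per background. Alternatives were a −log10 q of 5, equal list lengths, an overlap of 50 bp, each library left out, other assignments to genes and other promoter definitions. Of the 40 genes, 2 are counted in the totals and not reported here by name.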

Additional observations from a re-analysis of the deposited data

Results flagged for a closer look

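The number of channel gene peaks moved in opposite directions between the backgrounds for the factors, which was not tested, since each factor has 1 library per background. Mixed minus CD1 was 48 peaks for NFIA (136 against 88), -18 for NFIB (183 against 201) and 77 for NFIX (120 against 43). The whole lists moved the same way, from 16993 to 23541 peaks for NFIA, from 36431 to 33283 for NFIB and from 7497 to 21443 for NFIX, and the share of channel gene peaks stayed between 0.518% and 0.578%.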

How the results depend on the processing

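Of the recomputed values, 65 kept their direction and size, 12 moved and 1 reversed. With every list held to its 7497 strongest peaks, 77 regions belonged to channel genes, 19 of all 6 libraries (24.7%, against 25.6% of all regions) at 10 genes (25%, against 8.13% of all genes), with 11.1 regions per Mb (6.14 for all genes) and a log2 fold difference of -0.079. By nearest start site alone there were 148 regions, 22 of them shared, and the log2 fold difference was 0.0078, a change of sign within its SD. Promoters took 12.4% of channel gene regions within 5 kb (15.6% of all) and 9.96% with start sites of all gene biotypes (13.1% of all). Leaving out each library in turn gave 35 to 65 regions shared by the rest, or 14.2% to 25.9%; the highest values were without NfiX CD1, where the share over all regions was 25.3%. The shortened palindrome was chosen after the data were seen. No paired analysis was made, since each factor has 1 library per background. Read depth, and so the power to call weak peaks, is unknown, and list length differs between libraries.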

Other observations

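Among the channel genes are 5 in which classic ataxic mouse mutants map: Cacna1a (tottering), Cacna2d2 (ducky), Cacnb4 (lethargic), Cacng2 (stargazer) and Scn8a (motor endplate disease). This list was drawn up after the values were seen and supports nothing. All 5 had a region of all 6 libraries, with 6 such regions among 40 in total. Their lengths ran from 128 to 252 kb, a range in which 24.4% (50 to 200 kb) and 63.1% (over 200 kb) of protein-coding genes had one.

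Long genes without shared regions form the other end of the set. Cacna1e, of 494 kb, had 14 regions and none with a peak of NfiX CD1, and Cacna1b, of 159 kb, had none in its body. Scn9a and Scn7a, of 155 and 111 kb, had none at all, beside Scn1a with 5.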
